A study of Mus musculus with 16 samples.

Results

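The desmosomal cadherins are the transmembrane adhesion proteins of the desmosome, the junction that fastens neighbouring epithelial cells to each other. The mouse genes described here are the desmogleins Dsg1a, Dsg1b, Dsg1c, Dsg2, Dsg3 and Dsg4 and the desmocollins Dsc1, Dsc2 and Dsc3, taken by symbol. All 9 were found among the 43432 genes of the count tables, and all 9 were among the 19617 genes that passed the filter on low counts.

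RNA sequencing covered 4 sorted populations of thymic epithelial cells, with 4 libraries each. All mice were of the strain C57BL6.Aire-CreERT2.Ai14, of mixed sex and 5 to 6 weeks old, and all were analysed 7 days after 2 mg of tamoxifen. In these mice tamoxifen-activated Cre is made under the control of Aire, the regulator that lets medullary thymic epithelial cells (mTEC) transcribe genes of peripheral tissues, and Cre permanently turns on the red reporter (RFP) of the Ai14 allele. RFP therefore marks cells that expressed Aire around the tamoxifen pulse and their progeny, and an RFP- cell may have expressed Aire at another time. Live CD45- EPCAM+ cells were sorted by RFP and surface MHC class II into RFP+ MHCIIlo (19400 to 20500 cells per library), RFP- MHCIIlo (80500 to 102800 cells), RFP+ MHCIIhi (129500 to 164000 cells) and RFP- MHCIIhi (114000 to 150900 cells). Each library came from 12 pooled thymi and is numbered as a biological replicate, and the labels do not say whether equal numbers in different populations share a pool.

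In a desmosome the extracellular parts of desmogleins and desmocollins bind those of the neighbouring cell, and their tails bind plakoglobin and plakophilins, which connect through desmoplakin to keratin filaments. Stratified epithelia change the cadherins as cells move up: in epidermis Dsg3 and Dsc3 are strongest in the basal and lower layers, Dsg1 and Dsc1 in the upper layers, and Dsg4 in the uppermost layers and in hair, while Dsg2 and Dsc2 occur in nearly all epithelia that have desmosomes. In the thymic medulla, Hassall's corpuscles contain keratinised cells, and desmoglein 1 and desmoglein 3 are the autoantigens of pemphigus foliaceus and pemphigus vulgaris.

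Library totals were 7.93 to 19.46 M counted reads and were lowest in RFP+ MHCIIlo. Epcam was present in every library, at 322 to 621 counts per M after TMM scaling (CPM), and the CD45 gene Ptprc was at 17.7 to 88.4 CPM. The MHC class II gene H2-Aa was at 700.2 to 1695 CPM in the 8 MHCIIlo libraries and at 4569 to 5772 CPM in the 8 MHCIIhi libraries, in the order that the gates give. RFP+ MHCIIlo libraries 1 and 4 stood apart on a principal component each, and results whose call or size depended on them are given with and without them. With both left out, 8 cadherins in place of 9 passed the test described below between RFP+ and RFP- cells of MHCIIlo. Between MHCIIlo and MHCIIhi among RFP+ cells, 6 passed in place of 5. With all 16 libraries, 51.6% and 55.6% of all tested genes passed in these comparisons. The shares without libraries 1 and 4 were not computed, so the reduced counts cannot be set against them. The Aire transcript was at 13.9 to 68.0 CPM in RFP+ MHCIIlo and at 16.3 to 69.0 CPM in RFP- MHCIIlo, against 543 to 622 CPM in RFP+ MHCIIhi and 916 to 1041 CPM in RFP- MHCIIhi. Markers of other cell types differed between populations. Summed over 5 genes of cortical thymic epithelium, such as Psmb11 and Prss16, the level was 226 to 283 CPM in RFP+ MHCIIlo, 851 to 1052 CPM in RFP- MHCIIlo, 294 to 531 CPM in RFP+ MHCIIhi and 1462 to 2857 CPM in RFP- MHCIIhi. Of this, Ctsl alone had 671 to 833 CPM in RFP- MHCIIlo and 146 to 273 CPM in RFP+ MHCIIhi. Psmb11 (14.9 to 26.3 and 15.7 to 39.8 CPM) and Prss16 (24.9 to 51.9 and 27.3 to 79.9 CPM) overlapped between these populations. In RFP+ MHCIIhi against RFP- MHCIIlo, 1 of the 5 genes was higher and 2 were lower by the test described below. Summed over 8 thymocyte genes, the level was 20.0 to 80.8 CPM in RFP+ MHCIIlo, 18.9 to 40.0 CPM in RFP- MHCIIlo, 68.2 to 112 CPM in RFP+ MHCIIhi and 255 to 553 CPM in RFP- MHCIIhi. The 6 fibroblast genes summed to 48.3 to 159 CPM in RFP+ MHCIIlo, 420.3 to 959.7 CPM in RFP- MHCIIlo, 93.6 to 108 CPM in RFP+ MHCIIhi and 129 to 135 CPM in RFP- MHCIIhi. The 6 myeloid genes summed to 161 to 244 CPM in RFP+ MHCIIlo, 98.4 to 135 CPM in RFP- MHCIIlo, 603 to 622 CPM in RFP+ MHCIIhi and 393 to 480 CPM in RFP- MHCIIhi. The 5 endothelial genes summed to 36.9 to 52.9 CPM in RFP+ MHCIIlo, 50.4 to 82.8 CPM in RFP- MHCIIlo, 25.3 to 29.5 CPM in RFP+ MHCIIhi and 24.3 to 27.4 CPM in RFP- MHCIIhi, and the 5 B cell genes to 13.7 to 43.7 CPM over all libraries. Tek alone made up 30.4 to 48.9 CPM of the endothelial sum in RFP+ MHCIIlo. By the test described below, 1 endothelial gene was higher and 2 were lower in RFP+ MHCIIlo than in RFP+ MHCIIhi. Against RFP- MHCIIhi, 1 was higher and 3 were lower in RFP+ MHCIIlo. None of the genes in these 6 lists was at 0 in all 4 libraries of a population. The part of other cells in the cadherin results below was not tested.

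The 9 genes lie in 1 cluster of 644 kb on chromosome 18 of GRCm38, from 19960930 to 20604521 in the GENCODE M21 annotation, with no other gene of the count tables between them. The desmocollins come first and are on the minus strand: Dsc3 (19960930 to 20002351), Dsc2 (20030633 to 20059554) and Dsc1 (20084184 to 20114871). The desmogleins follow on the plus strand: Dsg1c (20247340 to 20285031), Dsg1a (20310811 to 20343350), Dsg1b (20376729 to 20410196), Dsg4 (20436175 to 20471821), Dsg3 (20510274 to 20547459) and Dsg2 (20558074 to 20604521). The 3 Dsg1 genes, which stand where humans have a single gene, are close copies of each other. Their coding sequences were 97% identical between Dsg1a and Dsg1b, 96% between Dsg1a and Dsg1c and 95.5% between Dsg1b and Dsg1c, against 60.7 to 67.8% for all other pairs of the 9 genes. Of the 50-base windows of their transcripts, 35% in Dsg1a, 48.4% in Dsg1b and 29.0% in Dsg1c occurred unchanged in another of the 3, and none did for the other 6 genes. Reads from such windows cannot be told apart, so the split of reads among the Dsg1 genes is uncertain and their sum is given as well. How such reads were counted is not given in the sources used here. If they were left out, the Dsg1 sum and the Dsg1 levels and shares per kb given below are too low. The end of Dsg2 overlaps the antisense gene Gm16090 over 6558 bases. The strand setting of the counting is not given in the sources used here, and Gm16090 held 175 reads over the 16 libraries, against 69015 for Dsg2.

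Levels per kilobase of exon are used here to set genes against each other, and coverage along the transcripts was not examined. On this scale Dsg2 had the highest mean in every population. It had 34.8 ± 1.76 CPM per kb in RFP+ MHCIIlo, 42.6 ± 1.03 in RFP- MHCIIlo, 39.2 ± 3.24 in RFP+ MHCIIhi and 39.2 ± 3.01 in RFP- MHCIIhi (SD, n = 4 each). In RFP+ MHCIIlo it was followed by Dsc2 (22 ± 1.46 CPM per kb), Dsg1a (17.6 ± 1.45), Dsg1b (12.8 ± 1.80), Dsc3 (11.9 ± 1.73), Dsc1 (6.35 ± 1.17), Dsg3 (3.19 ± 0.372), Dsg4 (0.601 ± 0.495) and Dsg1c (0.374 ± 0.134), where the library ranges of Dsg1b and Dsc3 and those of Dsg4 and Dsg1c overlapped. In RFP- MHCIIlo the order after Dsg2 was Dsc3 (36.1 ± 5.34 CPM per kb), Dsc2 (28.4 ± 1.72), Dsg1a (13.6 ± 1.25), Dsg1b (7.38 ± 0.716), Dsg4 (1.51 ± 0.255), Dsg3 (1.39 ± 0.167), Dsc1 (0.532 ± 0.162) and Dsg1c (0.187 ± 0.102), with overlap of Dsg2 and Dsc3 and of Dsg4 and Dsg3.

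In RFP+ MHCIIhi the genes after Dsg2 were Dsc2 (17.3 ± 0.702 CPM per kb), Dsg1a (15.4 ± 1.23), Dsg1b (10.9 ± 0.686), Dsc3 (8.52 ± 0.574), Dsc1 (2.29 ± 0.401), Dsg4 (1.55 ± 0.176), Dsg3 (1.48 ± 0.300) and Dsg1c (0.425 ± 0.103), with overlap of Dsc2 and Dsg1a and of Dsg4 and Dsg3. In RFP- MHCIIhi they were Dsg1a (22.6 ± 1.65 CPM per kb), Dsc2 (14.9 ± 0.890), Dsg1b (14.4 ± 1.52), Dsc3 (12.6 ± 1.29), Dsg4 (4.50 ± 0.262), Dsg3 (0.670 ± 0.122), Dsc1 (0.479 ± 0.0725) and Dsg1c (0.326 ± 0.0854), where Dsg1b overlapped both Dsc2 and Dsc3, and Dsc1 overlapped both Dsg3 and Dsg1c. Taking the longest transcript as the length in place of all exons put Dsg2 at 49.9 to 61 CPM per kb and left it first in the order of means in all 4 populations.

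**Figure D1:**
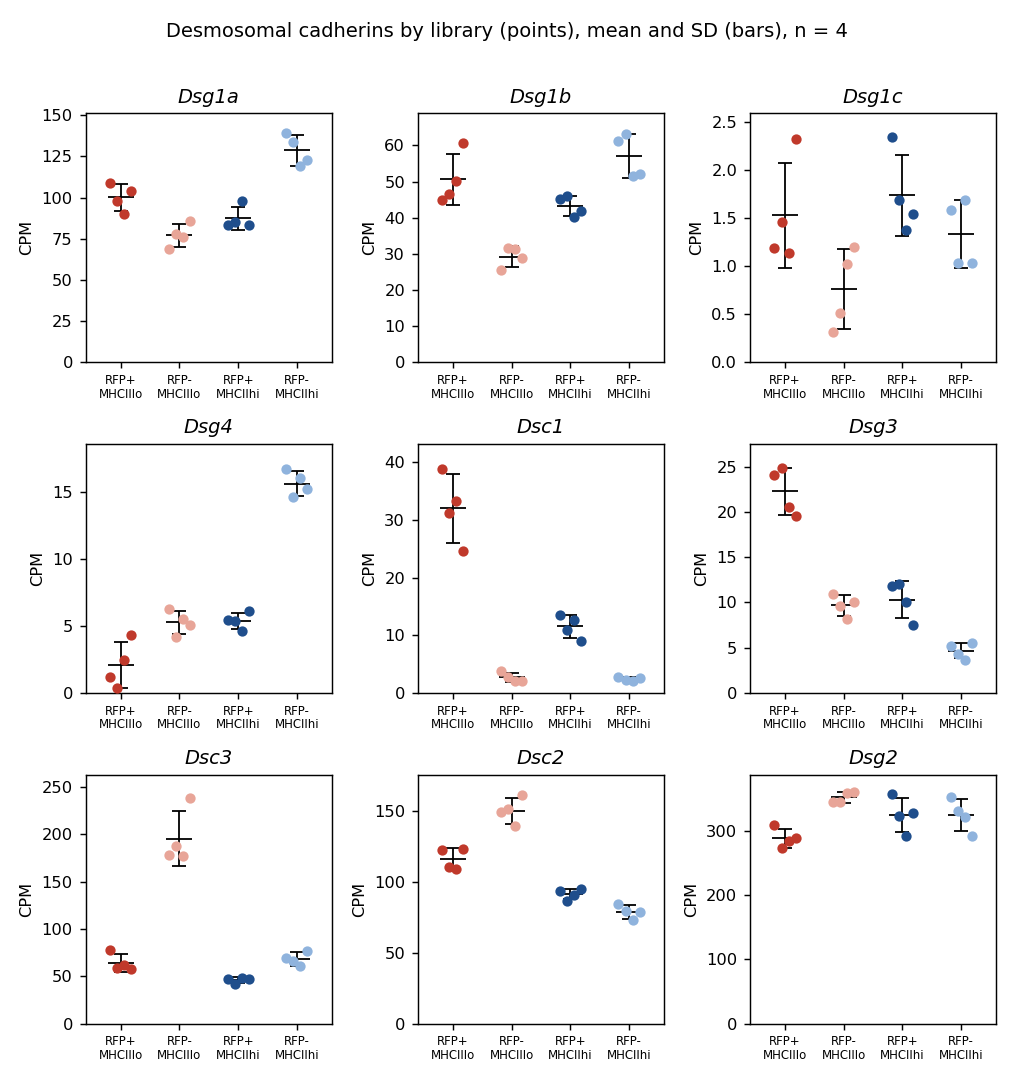
Level of each desmosomal cadherin in counts per M (CPM, linear axis from 0) in the 4 populations. Points are the 4 libraries of a population, bars the mean and SD. Dsc1 and Dsg3 are highest in RFP+ MHCIIlo, Dsc3 and Dsc2 in RFP- MHCIIlo, and Dsg4 and Dsg1a in RFP- MHCIIhi.

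Dsc1, the desmocollin of the upper epidermal layers, differed most between the populations. It had 38.9, 31.2, 33.4 and 24.6 CPM in the RFP+ MHCIIlo libraries 1 to 4, and 3.83, 2.71, 2.13 and 2.06 CPM in the RFP- MHCIIlo libraries. The RFP+ MHCIIhi libraries had 13.6, 10.9, 12.7 and 9.05 CPM, and the RFP- MHCIIhi libraries 2.83, 2.26, 2.00 and 2.58 CPM. Every RFP+ library was above every RFP- library of either MHC class II gate, and every RFP+ MHCIIlo library was above every RFP+ MHCIIhi library, while the 2 RFP- populations overlapped. In the RFP- populations these levels rested on 24 to 61 reads per library.

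Dsg1a and Dsg1b, desmogleins of the differentiated layers, had a different order of means, with RFP- MHCIIhi at the top and RFP- MHCIIlo at the bottom. Dsg1a had 109, 97.9, 90 and 104 CPM in RFP+ MHCIIlo and 68.6, 77.9, 76.3 and 85.8 CPM in RFP- MHCIIlo, while it had 83.5, 85.0, 97.8 and 83.2 CPM in RFP+ MHCIIhi and 139, 134, 119 and 123 CPM in RFP- MHCIIhi. Dsg1b had 44.9, 46.6, 50.3 and 60.8 CPM in RFP+ MHCIIlo and 25.4, 31.5, 31.3 and 28.8 CPM in RFP- MHCIIlo, while it had 45.2, 45.9, 40.1 and 42.0 CPM in RFP+ MHCIIhi and 61.3, 63.1, 51.6 and 52.1 CPM in RFP- MHCIIhi. For both genes the 4 RFP- MHCIIlo libraries lay below the 4 RFP+ MHCIIlo libraries, and the 4 RFP- MHCIIhi libraries lay above the 4 RFP+ MHCIIhi libraries. The RFP- MHCIIhi libraries also lay above those of RFP+ MHCIIlo for Dsg1a. For Dsg1b these 2 populations overlapped, and their difference did not pass the test described below. Dsg1c was close to the limit of detection, with 11 to 28 reads per library in RFP+ MHCIIlo, 3 to 14 in RFP- MHCIIlo, 22 to 30 in RFP+ MHCIIhi and 16 to 34 in RFP- MHCIIhi. The 3 Dsg1 genes together averaged 152 ± 11.5 CPM in RFP+ MHCIIlo, 107 ± 9.15 CPM in RFP- MHCIIlo, 132 ± 5.21 CPM in RFP+ MHCIIhi, and 187 ± 15.1 in RFP- MHCIIhi (SD, n = 4 each), in the same order as Dsg1a and Dsg1b.

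Dsg4, the desmoglein of hair and of the uppermost epidermal layers, was lowest where Dsc1 was highest. It had 1.19, 0.366, 2.49 and 4.31 CPM in the RFP+ MHCIIlo libraries 1 to 4 and 6.27, 4.16, 5.54 and 5.07 CPM in the RFP- MHCIIlo libraries. It had 5.46, 5.37, 4.61 and 6.10 CPM in the RFP+ MHCIIhi libraries and 16.7, 14.6, 16 and 15.2 CPM in the RFP- MHCIIhi libraries. RFP- MHCIIhi stood above all other libraries. RFP+ MHCIIlo spread widely, from 3 reads in library 2 to 52 reads in library 4, and only library 4 reached into the range of RFP- MHCIIlo.

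Dsg3, the desmoglein of the basal and lower layers, was highest in RFP+ MHCIIlo, with 24.1, 24.9, 20.6 and 19.6 CPM in its libraries and 10.9, 9.59, 8.19 and 10.1 CPM in those of RFP- MHCIIlo. It had 11.8, 12.0, 10.0 and 7.51 CPM in RFP+ MHCIIhi and 5.24, 4.26, 3.68 and 5.51 CPM in RFP- MHCIIhi. RFP+ MHCIIlo lay above all other libraries and RFP- MHCIIhi below all others, and the 2 populations in the middle of the order overlapped. Dsc3, the desmocollin of the same layers, was instead highest in RFP- MHCIIlo. It had 77.8, 58.4, 62.1 and 57.9 CPM in RFP+ MHCIIlo and 178, 187, 177 and 238 CPM in RFP- MHCIIlo, with library 4 above the other 3. It had 47.2, 41.5, 48.5 and 46.9 CPM in RFP+ MHCIIhi and 69.7, 65.7, 60.6 and 77.1 CPM in RFP- MHCIIhi, the second of which overlapped RFP+ MHCIIlo.

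Of the broadly expressed pair, Dsc2 followed the MHC class II gate. It had 122, 110.1, 109 and 123 CPM in RFP+ MHCIIlo and 149, 151, 139 and 161 CPM in RFP- MHCIIlo. It had 93.6, 86.7, 90.4 and 95.1 CPM in RFP+ MHCIIhi and 84.1, 79.2, 72.7 and 78.4 CPM in RFP- MHCIIhi, and no 2 populations overlapped. Dsg2 differed least between populations of the 9, with 308, 273, 283 and 288 CPM in RFP+ MHCIIlo and 345, 344, 359 and 359.5 CPM in RFP- MHCIIlo. Its MHCIIhi libraries had 357, 322, 291 and 327 CPM where RFP+ and 352, 330.3, 321 and 292 CPM where RFP-. Both MHCIIhi populations overlapped each other and both MHCIIlo populations, and the 2 MHCIIlo populations did not overlap.

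Within MHCIIlo cells, RFP+ libraries had more Dsc1, Dsg3, Dsg1a, Dsg1b and Dsg1c and less Dsc3, Dsg4, Dsc2 and Dsg2 than RFP- libraries. All 9 cadherins passed the test (edgeR quasi-likelihood, Benjamini-Hochberg adjusted p under 0.05), in a comparison in which 51.6% of all tested genes did. Of the 9, 5 were higher and 4 lower, against 28.9% and 22.7% of all tested genes. Dsc1 was 12.0-fold higher in RFP+ MHCIIlo, a log2 difference of 3.59 (SE 0.20, adjusted p = 4.3e-13). Dsg3 was 2.29-fold higher (log2 difference 1.20, SE 0.16, adjusted p = 1e-06), Dsg1b 1.73-fold higher (0.79, SE 0.10, adjusted p = 7.8e-07) and Dsg1a 1.30-fold higher (0.38, SE 0.09, adjusted p = 0.00083). Dsc3 fell by 1.61 on the log2 scale (SE 0.11, adjusted p = 1.6e-11), which is 3.05-fold higher in RFP- MHCIIlo. Dsg4 fell by 1.23 (SE 0.32, adjusted p = 0.0027), and without RFP+ MHCIIlo library 4 its log2 difference was -1.90 (adjusted p = 1.5e-05). The differences of Dsc2 (log2 difference -0.37, SE 0.07, adjusted p = 0.00022) and Dsg2 (-0.29, SE 0.08, adjusted p = 0.0031) were the smallest in size. Libraries of the 2 populations did not overlap for 7 of the 9 cadherins, against 39.5% of all tested genes, the exceptions being Dsg1c and Dsg4.

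The call for Dsg1c (1.98-fold, log2 difference 0.99, SE 0.40, adjusted p = 0.043) did not hold in 17 of 23 alternatives, in which its adjusted p ranged up to 0.23. Among these, leaving out RFP- MHCIIlo library 1 or RFP+ MHCIIlo library 4 gave log2 differences of 0.76 and 0.68. In bulk libraries such as these, fewer cells that express a gene and less RNA of that gene per cell cannot be told apart. In this comparison the 5 cortical epithelial genes and 5 of the 6 fibroblast genes fell in RFP+ MHCIIlo, as did 4 of the 5 endothelial genes, and 4 of the 8 thymocyte and 4 of the 6 myeloid genes rose, with the summed levels given above.

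**Figure D2:**
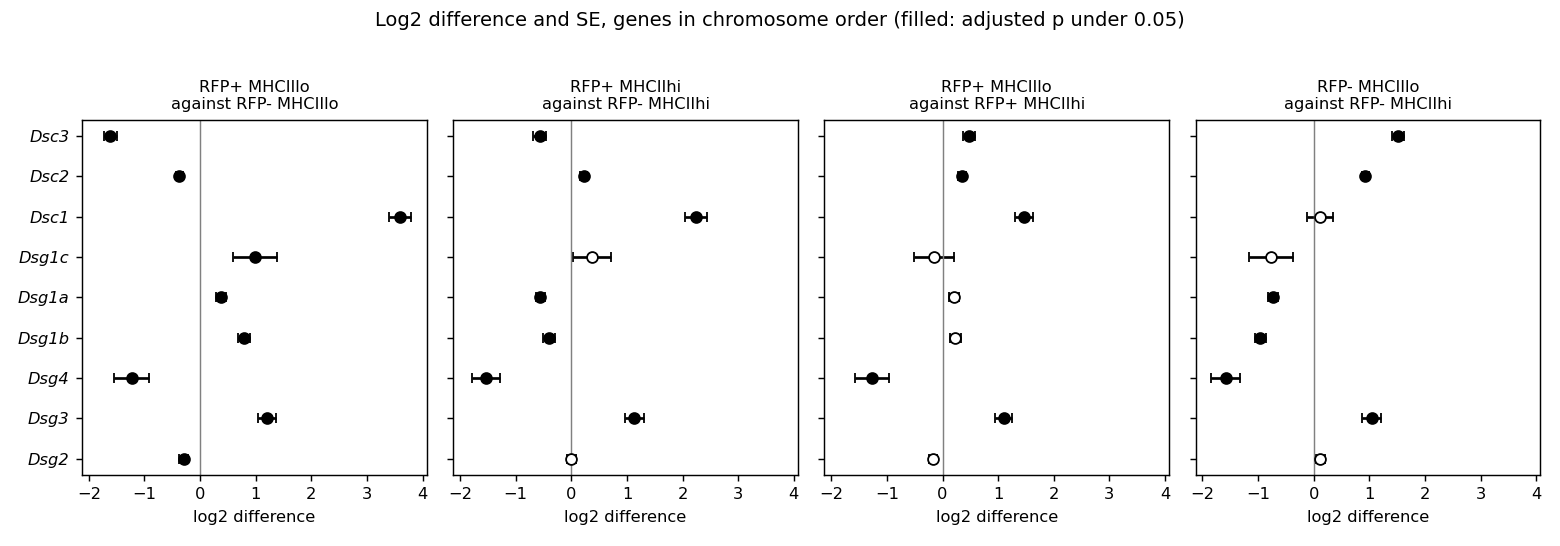
Log2 difference of each cadherin (horizontal axis, bars SE) in 4 comparisons, with the genes in chromosome order from top to bottom. Filled points had an adjusted p under 0.05. Dsc1 and Dsg3 lie to the right and Dsg4 to the left in both RFP comparisons, while Dsg1a, Dsg1b and Dsc2 change sides between them.

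Within MHCIIhi cells, RFP+ libraries again had more Dsc1 and Dsg3 and less Dsg4 and Dsc3, whereas Dsg1a and Dsg1b were lower and Dsc2 was slightly higher than in RFP- libraries. Of the 9 cadherins 3 rose and 4 fell, where 45.0% of all tested genes passed, 23.8% higher and 21.2% lower. Dsc1 was 4.71-fold higher (log2 difference 2.24, SE 0.19, adjusted p = 1.3e-09) and Dsg3 2.19-fold higher (1.13, SE 0.17, adjusted p = 4.8e-06) in RFP+ MHCIIhi by edgeR's quasi-likelihood test. Dsg4 had a log2 difference of -1.54 (SE 0.25, adjusted p = 2.3e-05), Dsc3 of -0.57 (SE 0.11, adjusted p = 0.00012), Dsg1a of -0.56 (SE 0.08, adjusted p = 8.6e-06) and Dsg1b of -0.40 (SE 0.10, adjusted p = 0.0017). Dsc2 was 1.16-fold higher (0.22, SE 0.07, adjusted p = 0.02), and this call was lost without RFP- MHCIIhi library 3 (adjusted p = 0.099), RFP- MHCIIhi library 4 (0.058) or RFP+ MHCIIhi library 1 (0.068). For Dsg2 the log2 difference was 0.00 with an SE of 0.08, and for Dsg1c it was 0.37 with an SE of 0.34. The libraries did not overlap for 7 of the 9, against 50% of all tested genes. All 5 cortical epithelial genes and 7 of the 8 thymocyte genes also fell in RFP+ MHCIIhi.

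The RFP difference was not of the same size in the 2 gates for 6 of the 9 cadherins. The test subtracted the RFP difference in MHCIIhi from that in MHCIIlo, for which 34.1% of all tested genes passed, 17.5% with a positive and 16.6% with a negative value. The difference of differences was positive for Dsc1 (1.36, SE 0.28, adjusted p = 0.0006), Dsg1b (1.19, SE 0.14, adjusted p = 6.9e-07) and Dsg1a (0.93, SE 0.12, adjusted p = 2.2e-06). It was negative for Dsc3 (-1.04, SE 0.15, adjusted p = 1.1e-05), Dsc2 (-0.58, SE 0.10, adjusted p = 0.00013) and Dsg2 (-0.29, SE 0.11, adjusted p = 0.042). The call for Dsg2 did not hold in 11 of 23 alternatives, 9 of which left out a single library, from each of the 4 populations, with adjusted p up to 0.078. Dsg3 showed 0.06 with an SE of 0.23, Dsg4 0.31 with an SE of 0.42 and Dsg1c 0.62 with an SE of 0.53. Summed over the 3 genes, Dsg1 was higher in RFP+ cells in MHCIIlo (log2 difference 0.51, SE 0.08, adjusted p = 1.4e-05) and lower in RFP+ cells in MHCIIhi (-0.50, SE 0.08, adjusted p = 1.8e-05).

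Among RFP+ cells, MHCIIlo libraries had more Dsc1, Dsg3, Dsc3 and Dsc2 and less Dsg4 than MHCIIhi libraries. These 5 of 9 passed the edgeR test, against 55.6% of all tested genes, 27.5% higher and 28.1% lower. Dsc1 was 2.76-fold higher (log2 difference 1.47, SE 0.16, adjusted p = 6.3e-08), Dsg3 2.14-fold higher (1.10, SE 0.15, adjusted p = 2.1e-06), Dsc3 1.39-fold higher (0.48, SE 0.11, adjusted p = 0.00072) and Dsc2 1.27-fold higher (0.35, SE 0.07, adjusted p = 0.0004). Dsg4 had a log2 difference of -1.27 (SE 0.31, adjusted p = 0.0015), which became -1.94 without RFP+ MHCIIlo library 4 (adjusted p = 7.5e-06). Dsg1a (0.20, adjusted p = 0.054), Dsg1b (0.23, adjusted p = 0.054) and Dsg2 (-0.17, adjusted p = 0.063) were near the threshold, and the 3 Dsg1 genes summed to 1 passed it (0.20, SE 0.08, adjusted p = 0.036). The libraries did not overlap for the 5 cadherins that passed, against 47.0% of all tested genes. Here 4 of the 5 cortical epithelial and 3 of the 8 thymocyte genes fell in RFP+ MHCIIlo. Also lower there were 4 of the 6 myeloid and 4 of the 5 B cell genes. Of the 6 fibroblast genes 3 rose and 1 fell, and 1 myeloid gene rose.

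Among RFP- cells, MHCIIlo libraries had more Dsc3, Dsg3 and Dsc2 and less Dsg1a, Dsg1b and Dsg4 than MHCIIhi libraries. For the cadherins this made 3 higher and 3 lower, where 69.1% of all tested genes passed, 33.5% higher and 35.6% lower. Dsc3 was 2.85-fold higher (log2 difference 1.51, SE 0.11, adjusted p = 1.3e-11), Dsg3 2.05-fold higher (1.04, SE 0.17, adjusted p = 1e-05) and Dsc2 1.90-fold higher (0.93, SE 0.07, adjusted p = 1.2e-10) in RFP- MHCIIlo by edgeR. Dsg4 had a log2 difference of -1.58 (SE 0.26, adjusted p = 1.2e-05), Dsg1b of -0.96 (SE 0.10, adjusted p = 1.4e-08) and Dsg1a of -0.74 (SE 0.09, adjusted p = 7.1e-08). Dsc1 showed 0.11 with an SE of 0.23, and Dsg2 0.12 with an SE of 0.08. For these 6 the libraries did not overlap, against 65.3% of all tested genes. The 5 cortical epithelial and 8 thymocyte genes all fell in RFP- MHCIIlo, as did 5 of the 6 myeloid and 4 of the 5 B cell genes, while 5 of the 6 fibroblast and 4 of the 5 endothelial genes rose.

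Across both gates at once, RFP+ MHCIIlo against RFP- MHCIIhi, 3 cadherins were higher and 2 lower, where 68.5% of all tested genes passed, 33.6% higher and 34.9% lower. The libraries did not overlap for 5, against 59.9% of all tested genes. This pair held the widest contrast of the family, with Dsc1 13-fold higher (log2 difference 3.70, SE 0.19, adjusted p = 4.3e-14, edgeR) and Dsg4 lower by a log2 difference of -2.81 (SE 0.30, adjusted p = 1.4e-08). Dsg4 was at -3.48 without RFP+ MHCIIlo library 4. Dsg3 (2.23, SE 0.16, adjusted p = 2.8e-11) and Dsc2 (0.56, SE 0.07, adjusted p = 5.1e-07) were higher, and Dsg1a (-0.36, SE 0.09, adjusted p = 0.00072) was lower. RFP+ MHCIIhi against RFP- MHCIIlo gave 3 higher and 2 lower, where 65.9% of all tested genes passed, 35.3% higher and 30.6% lower, with no overlap of libraries for 5 cadherins, against 61.5% of all tested genes. There Dsc1 (2.12, SE 0.20, adjusted p = 2.4e-09), Dsg1c (1.14, SE 0.38, adjusted p = 0.012) and Dsg1b (0.56, SE 0.10, adjusted p = 4.1e-05) were higher, while Dsc3 (-2.08, SE 0.11, adjusted p = 6.4e-14) and Dsc2 (-0.71, SE 0.07, adjusted p = 1.2e-08) were lower. Dsg3 and Dsg4 had nearly the same level in these 2 populations, with log2 differences of 0.10 (SE 0.16) and 0.04 (SE 0.28). Against RFP- MHCIIhi, all 5 cortical epithelial and all 8 thymocyte genes fell in RFP+ MHCIIlo. So did 4 of the 6 myeloid and 4 of the 5 B cell genes, with 1 of each of these 2 lists higher. In RFP+ MHCIIhi against RFP- MHCIIlo, all 8 thymocyte, all 6 myeloid and 4 of the 5 B cell genes rose. All 6 fibroblast and 4 of the 5 endothelial genes fell there. The 6 comparisons of pairs share libraries with each other, so their results are not independent.

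The subfamilies differed between the populations in both their totals and their make-up. The summed level of the 9 cadherins was 109.6 ± 6.13 CPM per kb in RFP+ MHCIIlo, 132 ± 8.38 in RFP- MHCIIlo, 97.1 ± 3.54 in RFP+ MHCIIhi and 109.7 ± 6.54 in RFP- MHCIIhi (SD, n = 4 each). The desmogleins summed to 69.4 ± 3.59 CPM per kb in RFP+ MHCIIlo, 66.6 ± 2.34 in RFP- MHCIIlo, 69.0 ± 3.10 in RFP+ MHCIIhi, and 81.7 ± 5.85 in RFP- MHCIIhi. The desmocollins summed to 40.2 ± 3.43 CPM per kb in RFP+ MHCIIlo, 65.0 ± 6.81 in RFP- MHCIIlo, 28.1 ± 1.28 in RFP+ MHCIIhi, and 28.0 ± 1.97 in RFP- MHCIIhi, so that the 2 MHCIIhi populations had nearly the same desmocollin total and RFP- MHCIIlo the highest. Within the desmocollins, Dsc1 made up 12.5 to 17.1% of the level per kb in RFP+ MHCIIlo, 0.546 to 1.22% in RFP- MHCIIlo, 6.30 to 9.26% in RFP+ MHCIIhi, and 1.56 to 1.91% in RFP- MHCIIhi. Dsc3 made up 27.5 to 31.8% in RFP+ MHCIIlo, against 53.3 to 58.8% in RFP- MHCIIlo. In RFP+ MHCIIhi it made up 29.2 to 31.3%, against 43.9 to 48.1% in RFP- MHCIIhi. Thus Dsc3 was the leading desmocollin per kb in RFP- MHCIIlo, and Dsc2 led in the other 3 populations. Among desmogleins, the share of Dsg2 was 50.2 ± 1.87% in RFP+ MHCIIlo, 63.9 ± 1.21% in RFP- MHCIIlo, 56.8 ± 2.38% in RFP+ MHCIIhi and 48.0 ± 1.25% in RFP- MHCIIhi. Dsg3 and Dsg4 were minor everywhere, with Dsg3 at 4.62 ± 0.658% in RFP+ MHCIIlo against 0.823 ± 0.166% in RFP- MHCIIhi. Dsg4 was at 0.852 ± 0.679% in RFP+ MHCIIlo against 5.52 ± 0.406% in RFP- MHCIIhi. These shares divide each library by its own sum, so a fall of 1 gene raises the shares of the rest.

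**Figure D3:**
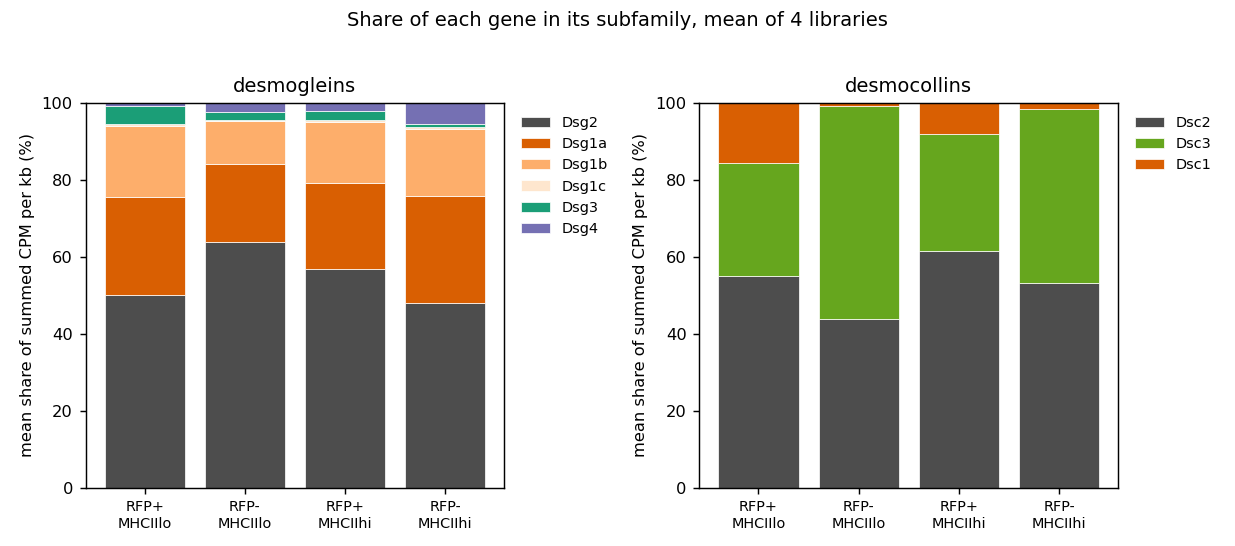
Mean share of each gene in the summed level per kilobase (percent, vertical axis) of the desmogleins and of the desmocollins, over the 4 libraries of each population. Dsc1 takes 15.8% of the desmocollin level in RFP+ MHCIIlo and 0.831% in RFP- MHCIIlo, and Dsc3 takes 29.4% and 55.3%.

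Of the proteins that bind the cadherin tails or the plaque, plakoglobin was higher in RFP+ cells of both gates, while the plakophilins had no common direction in MHCIIlo and 3 of the 4 rose in RFP+ cells of MHCIIhi. Of 10 genes for the desmosomal plaque and other desmosome parts, 6 rose and 1 fell in the RFP+ cells of MHCIIlo, and 9 rose and none fell in the RFP+ cells of MHCIIhi (there Pkp4 had a log2 difference of 0.08). Of all tested genes, 28.9% rose and 22.7% fell in MHCIIlo, and 23.8% rose and 21.2% fell in MHCIIhi. The 6 in MHCIIlo were Jup, Dsp, Perp, Ppl, Evpl and Cdsn, of which Perp is a membrane protein, Ppl and Evpl belong to the cornified envelope and Cdsn is extracellular. The median log2 difference of all 10 genes was 0.44 in MHCIIlo and 0.72 in MHCIIhi, against medians of 0.0742 and -0.0159 over all tested genes. Jup, which encodes plakoglobin, the armadillo protein that binds the cadherin tails, had 419, 368, 407 and 316 CPM in RFP+ MHCIIlo and 257, 238, 215 and 249.8 CPM in RFP- MHCIIlo, and 285, 269, 268 and 253 CPM in RFP+ MHCIIhi and 123, 104, 116 and 120.4 CPM in RFP- MHCIIhi. Its libraries did not overlap in either RFP comparison, with log2 differences of 0.65 (SE 0.09, adjusted p = 1.4e-06) in MHCIIlo and 1.21 (SE 0.09, adjusted p = 1.1e-10) in MHCIIhi by edgeR. Perp, a membrane protein of desmosomes, had log2 differences of 0.58 (SE 0.11, adjusted p = 8.7e-05) in MHCIIlo and 1.15 (SE 0.11, adjusted p = 7.3e-09) in MHCIIhi. Without RFP+ MHCIIlo libraries 1 and 4 the first was 0.36 (adjusted p = 0.0032). Evpl and Ppl, which encode the plakins envoplakin and periplakin of the cornified envelope, had 1.36 (SE 0.13) and 0.65 (SE 0.13) in MHCIIlo and 1.25 (SE 0.13) and 0.76 (SE 0.13) in MHCIIhi, all past the threshold.

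Cdsn, which encodes corneodesmosin, the adhesive protein of desmosomes in the cornified layer, had the widest RFP difference of the list in MHCIIlo. It was at 53.5, 34.3, 38.1 and 39.9 CPM in RFP+ MHCIIlo and 6.48, 4.41, 5.37 and 4.30 CPM in RFP- MHCIIlo, an 8.11-fold difference without overlap (log2 difference 3.02, SE 0.17, adjusted p = 6.1e-13, edgeR). In MHCIIhi it was at 14.7, 11.0, 13.7 and 12.6 CPM in RFP+ and 8.63, 10.1, 8.13 and 6.49 CPM in RFP- libraries (0.64, SE 0.16, adjusted p = 0.0018). Its RFP difference was wider in MHCIIlo by 2.38 (SE 0.23, adjusted p = 3.1e-08), as that of Dsc1 was by 1.36.

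Dsp, which encodes desmoplakin, the link to keratin, was at 1407 ± 286 CPM in RFP+ MHCIIlo, 1145 ± 60.2 CPM in RFP- MHCIIlo, 914 ± 80.0 CPM in RFP+ MHCIIhi, and 572 ± 89.2 in RFP- MHCIIhi (SD, n = 4 each). It was higher in RFP+ MHCIIhi than in RFP- MHCIIhi (0.68, SE 0.12, adjusted p = 7.4e-05, edgeR). The difference in MHCIIlo was 0.30 (SE 0.12, adjusted p = 0.045), but it was 0.17 without RFP+ MHCIIlo library 1 (adjusted p = 0.22), and the call was lost in 16 of 24 alternatives, among them RLE size factors (0.059) and DESeq2 (0.063). Of the plakophilins, which bind desmoplakin at the plaque, Pkp1 had log2 differences of 0.21 (adjusted p = 0.12) in MHCIIlo and 0.57 (adjusted p = 0.00015) in MHCIIhi, and Pkp3 -0.04 (adjusted p = 0.76) and 0.75 (adjusted p = 1.9e-07). In MHCIIlo Pkp1 was at 0.08 without RFP+ MHCIIlo library 1 and passed the test without library 4 (0.28, adjusted p = 0.037). Pkp2 had 0.13 (adjusted p = 0.51) and 0.49 (adjusted p = 0.011), the second of which was lost without RFP- MHCIIhi library 4 (adjusted p = 0.062) or RFP+ MHCIIhi library 1 (0.061). Pkp4, a related protein found in both desmosomes and adherens junctions, was at 130.4, 122, 122 and 123 CPM in RFP+ MHCIIlo and 182, 186, 172 and 159 CPM in RFP- MHCIIlo. It was the gene of the list that fell there (-0.49, SE 0.07, adjusted p = 1.9e-06).

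**Figure D4:**
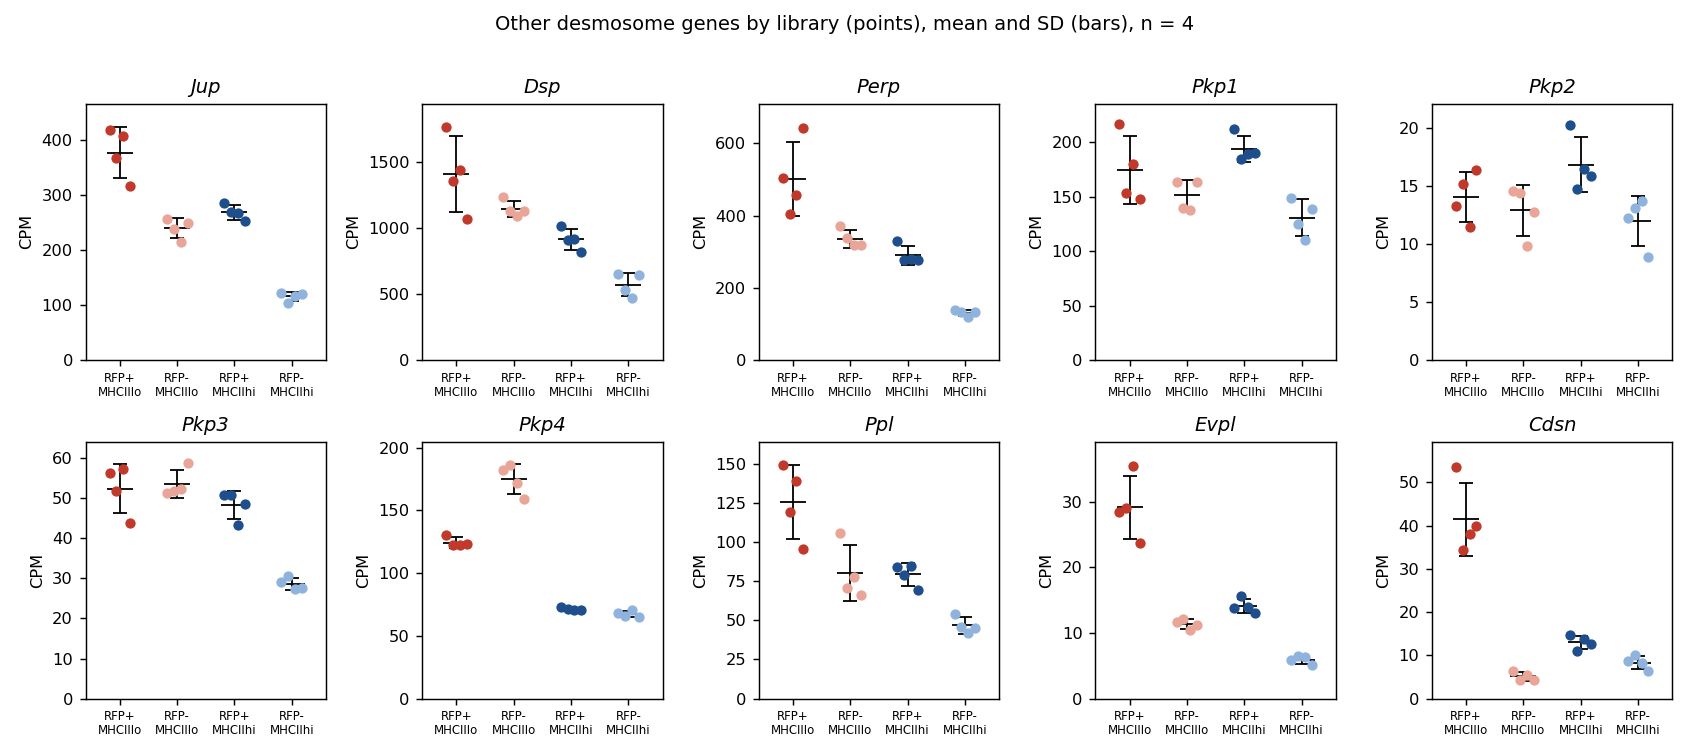
Level of the 10 other desmosome genes in counts per M (CPM, linear axes from 0) in the 4 populations. Points are libraries, bars the mean and SD of 4. RFP- MHCIIhi is the lowest population for Jup, Dsp, Perp, Ppl and Evpl, Cdsn is highest in RFP+ MHCIIlo, and Pkp4 follows the MHC class II gate.

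Between the gates, 7 of the 10 desmosome genes rose and none fell in MHCIIlo among RFP+ cells, and 7 rose and 1 fell in MHCIIlo among RFP- cells. Of all tested genes, 27.5% rose and 28.1% fell among RFP+ cells, and 33.5% rose and 35.6% fell among RFP- cells. Among RFP+ cells the widest difference was that of Cdsn (1.68, SE 0.15, adjusted p = 1.9e-09, edgeR), and Pkp1 (-0.15, SE 0.11), Pkp2 (-0.25, SE 0.16) and Pkp3 (0.11, SE 0.09) did not pass. Without RFP+ MHCIIlo library 1, Pkp1 passed as lower in RFP+ MHCIIlo (-0.27, adjusted p = 0.026). Among RFP- cells Pkp4 (1.37, SE 0.07, adjusted p = 3.5e-14) and Perp (1.36, SE 0.11, adjusted p = 1.4e-10) had the widest differences. Cdsn was the gene that fell there (-0.70, SE 0.18, adjusted p = 0.0012).

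Gene lists for layers of stratified epithelium and for other junctions are given for context. In RFP+ against RFP- cells, 28.9% of all tested genes rose and 22.7% fell in MHCIIlo, and 23.8% rose and 21.2% fell in MHCIIhi. All 10 genes of suprabasal and cornified layers rose in RFP+ cells in both gates, with a median log2 difference of 3.62 in MHCIIlo and 2.00 in MHCIIhi. They ranged there from 1.30 (Grhl3, a transcription factor of epidermal barrier formation) to 3.96 (Krt1, a keratin of the suprabasal layers) in MHCIIlo, and from 0.30 (Grhl3) to 3.6 (Krt10, the partner keratin of Krt1) in MHCIIhi. The call for Grhl3 in MHCIIhi was lost without RFP- MHCIIhi library 3 (adjusted p = 0.079) or 4 (0.10) or RFP+ MHCIIhi library 2 (0.059). Of 6 genes of the basal layer, 5 fell in the RFP+ cells of MHCIIlo, with Krt14 lowest at -2.17 (SE 0.11, adjusted p = 2.2e-13, edgeR), and 2 rose and 1 fell in the RFP+ cells of MHCIIhi. Of 6 genes for hemidesmosomes, which attach basal cells to the basement membrane, 5 fell and none rose in MHCIIlo, with Itga6, an integrin subunit, lowest at -1.49 (SE 0.08, adjusted p = 7.2e-13), and 2 rose and 3 fell in MHCIIhi. Of 9 adherens junction genes 4 rose and 3 fell in MHCIIlo and 6 rose and none fell in MHCIIhi. Cdh3, which encodes P-cadherin, a classical cadherin of basal cells, had a log2 difference of -2.26 (SE 0.13, adjusted p = 9.5e-13) in MHCIIlo, and the adhesion gene Nectin4 had 1.75 (SE 0.12, adjusted p = 3.9e-11). In the same comparison Dsc1 (3.59) lay among the suprabasal genes in size and Dsc3 (-1.61) among the basal ones, whereas Dsg3, a gene of lower layers in epidermis, was higher by 1.20. Of the other cadherins of upper layers, Dsg1a (0.38), Dsg1b (0.79) and Dsg1c rose by less than the lowest suprabasal gene (1.30), and Dsg4 fell (-1.23).

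Between the gates, 9 suprabasal genes rose and 1, Grhl3 (-0.42, SE 0.10, adjusted p = 0.0015, edgeR), fell in RFP+ MHCIIlo against RFP+ MHCIIhi, with Lor, which encodes the cornified envelope protein loricrin, highest at 1.83. In RFP- MHCIIlo against RFP- MHCIIhi, 5 rose and 2 fell, from -1.88 (Krt77) to 1.40 (Krtdap). The shares of all tested genes were 27.5% higher and 28.1% lower among RFP+ cells, and 33.5% and 35.6% among RFP- cells. The basal list had 2 higher and none lower among RFP+ cells and 5 higher and none lower among RFP- cells, with Krt5 highest in both (0.81 and 2.83). Krt15 of the same list had a log2 difference of 0.09 (SE 0.24) between RFP+ and RFP- cells of MHCIIlo. This became 0.60 without RFP- MHCIIlo library 1 (adjusted p = 0.0016, edgeR). In MHCIIhi its RFP difference was 0.61 (SE 0.22, adjusted p = 0.03, edgeR), and 0.57 to 0.66 in the alternatives. The libraries did not overlap there, with 23.4 to 28.3 CPM in RFP+ and 15.9 to 18.3 CPM in RFP- MHCIIhi. The MHCIIhi call was nevertheless lost in DESeq2 (adjusted p = 0.05). It was also lost without any 1 of 7 of the 8 MHCIIhi libraries, the exception being RFP+ MHCIIhi library 4. Of the hemidesmosome genes, 4 rose and 2 fell among RFP+ cells and 5 rose and 1 fell among RFP- cells, with Cd151 at the top (1.00 and 1.58) and Col17a1, the collagen that is the antigen of bullous pemphigoid, at the bottom (-1.49 and -0.48). The adherens list had 3 and 7 higher and none lower, led by Cdh2 (1.92) among RFP+ and Cdh3 (2.40) among RFP- cells. Ctnnb1, which encodes beta-catenin, had -0.15 (SE 0.09) among RFP+ cells, which passed the test in DESeq2 (-0.20, adjusted p = 0.046), without RFP+ MHCIIlo library 4 (-0.21, adjusted p = 0.049) and without libraries 1 and 4 (-0.25, adjusted p = 0.035), and Nectin4 -0.03 (SE 0.13) among RFP- cells, the lowest of the list.

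**Figure D5:**
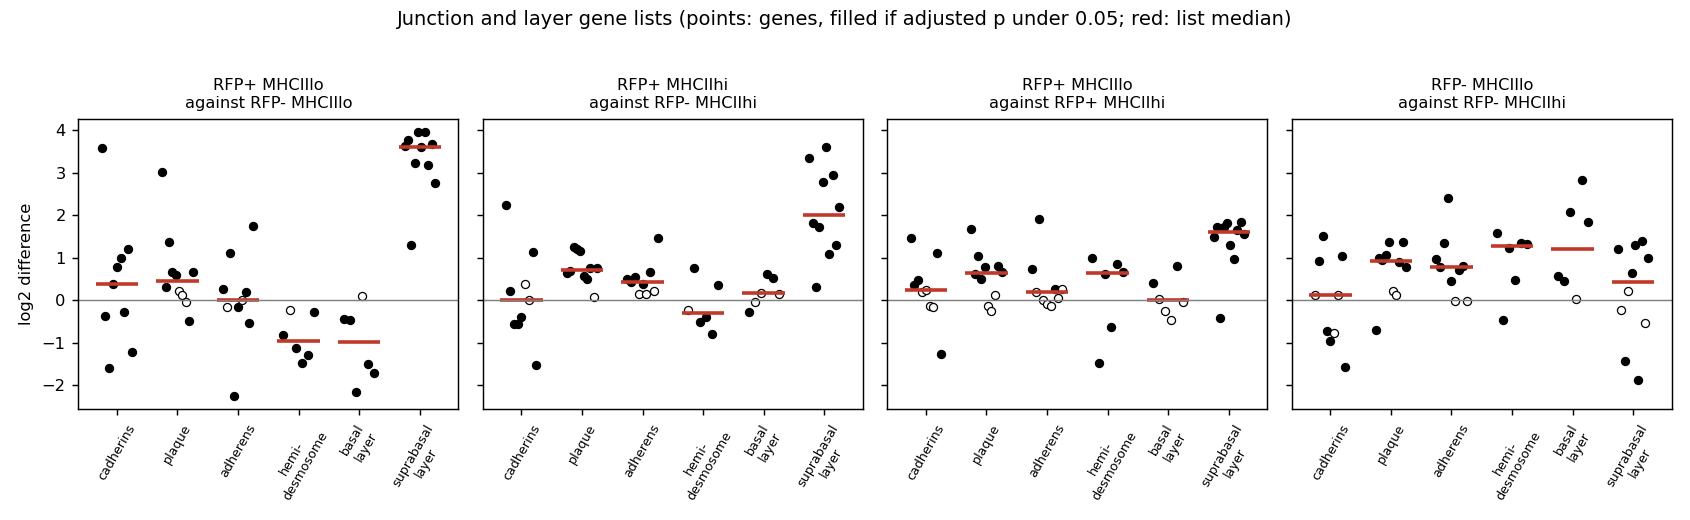
Log2 difference of each gene (points, filled where the adjusted p was under 0.05) for the desmosomal cadherins and 5 lists of junction or epithelial layer genes in 4 comparisons, with the list median in red. The cadherins spread from -1.61 to 3.59 in RFP+ MHCIIlo against RFP- MHCIIlo, while all 10 suprabasal genes lie between 1.30 and 3.96.

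For each cadherin the 3 protein-coding genes with the most similar pattern were sought among 13258 tested genes with at least 5 CPM in a population, by Pearson correlation of log2 CPM over the 16 libraries. The values are descriptions, since the points fall into 4 populations. Dsc1 was most like Krt1 (r = 0.99), Sdr42e1 (0.989) and Plbd1 (0.989). Krt1 had means of 261 CPM in RFP+ MHCIIlo, 16.9 in RFP- MHCIIlo, 74.2 in RFP+ MHCIIhi and 10.8 in RFP- MHCIIhi, the same order as Dsc1. Dsc3 was most like Wfikkn2 (0.989), Sh3pxd2b (0.989) and Shisa4 (0.987), and Dsc2 most like Gm8113 (0.98), Tpm1 (0.977) and Nedd4l (0.977). Dsg3 was most like the kinase gene Hipk1 (0.983), Rapgefl1 (0.979) and Pmm2 (0.979), and Dsg4 most like the connexin 43 gene Gja1 (0.949), Neil3 (0.946) and Washc3 (0.943). Dsg1a went with Kif24 (0.927), Fbxo45 (0.918) and Pitpnc1 (0.915), and Dsg1b with Nol4 (0.926), Ttll6 (0.923) and Ryr2 (0.922). For Dsg1c, with few reads, and Dsg2, with little variation, the highest correlations were lower, at 0.864 (Bpnt1) and 0.835 (Smyd5), with Xylb (0.854) and Vps51 (0.851) next for Dsg1c and Ccnjl (0.826) and Mtus2 (0.825) next for Dsg2. The search left out the family itself.

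The genes next to the cluster are given for comparison, and their differences from the cadherins were not tested. Within 250 kb of its ends, 4 genes passed the filter, all on the side of Dsg2: Gm16090, Ttr, B4galt6 and Trappc8. Ttr, which encodes the plasma transport protein transthyretin (20665280 to 20674321), had 90.3, 105, 61.6 and 91.3 CPM in RFP+ MHCIIlo and 4.25, 2.80, 3.58 and 4.99 CPM in RFP- MHCIIlo, and 106, 129, 123 and 136 CPM in RFP+ MHCIIhi and 16.6, 15.6, 14.7 and 20.0 CPM in RFP- MHCIIhi. It was 22.3-fold higher in RFP+ MHCIIlo (log2 difference 4.48, SE 0.17, adjusted p = 1.8e-15, edgeR) and 7.37-fold higher in RFP+ MHCIIhi (2.88, SE 0.14, adjusted p = 1.1e-13) than in the RFP- cells of the same gate. Dsg2, its nearest cadherin, had -0.29 and 0.00. B4galt6, which encodes a galactosyltransferase of glycolipid synthesis, was 1.56-fold and 2.41-fold higher (0.64, SE 0.10, and 1.27, SE 0.10). Trappc8, of a vesicle tethering complex, had log2 differences of 0.42 (SE 0.07, adjusted p = 2.9e-05) and 0.22 (SE 0.07, adjusted p = 0.012), the second of which was lost without RFP- MHCIIhi library 4 (adjusted p = 0.061). Gm16090, with 3 to 22 reads per library, had -0.45 (SE 0.46) and 0.33 (SE 0.48).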

How the data were processed

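The authors deposited a table of unnormalised counts for each library, with 43432 Ensembl genes. The submitters' processing notes name STAR, DESeq2 and the build GRCm38 without versions. Not given in the sources used here are the counting tool, its strand setting and the annotation release. Per the labels' protocols, poly(A) RNA was amplified with NuGen Ovation V2 and made into Nextera XT libraries. The p-values measure the spread between the pools as labelled.

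Symbols, lengths and coordinates came from GENCODE M21, which matched 42462 gene identifiers, and the 970 others held 0.11% of the reads. Counts were analysed with edgeR 4.0.16 in R 4.3.3: filterByExpr (minimum count 10, minimum total 15) left 19617 genes, libraries were scaled by TMM, and a quasi-likelihood model with 1 mean for each population was fitted to all 16. Log2 CPM values, used for correlations and principal components, had a prior count of 2, which did not enter the log2 differences. Benjamini-Hochberg adjustment ran over all tested genes within each contrast, with a threshold of 0.05, and the SE is the log2 difference divided by the root of F. Levels per kb divided the CPM by the length of all exons joined. Identity between coding sequences was computed with Biopython 1.88 on the longest reading frame of each gene. The fit was tested on simulated counts. No 2 libraries of a population were copies: the chi-square per degree of freedom over 24 pairs was 3.178 to 36.78.

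Library totals of 7.93 to 19.46 M (7.93 to 12.93 M in RFP+ MHCIIlo) limit the precision most for Dsg1c, with 293 reads over all libraries. The alternatives were RLE size factors, no filter, DESeq2 1.42.0, limma-voom (limma 3.58.1), a replicate block, only the populations compared, the Dsg1 genes summed, and each library left out. Leaving out RFP+ MHCIIlo libraries 1 and 4 together and the longest transcript as the length were added after seeing the data.

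The cadherins and the gene lists were chosen with earlier results of these data known. All 9 cadherins and all desmosome genes are named. From the layer and other junction lists, the genes named had the highest or the lowest difference in a contrast, and not every such gene is given. Genes named from the cell type lists, such as Psmb11, Prss16, Ctsl and Tek, are examples not chosen by that rule.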

Additional observations from a re-analysis of the deposited data

Results flagged for a closer look

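For 6 of the 9 cadherins the RFP difference in MHCIIlo differed from that in MHCIIhi by the interaction term of the edgeR fit, against 34.1% of all tested genes. The value, on the log2 scale, was 0.93 for Dsg1a, 1.19 for Dsg1b, 1.36 for Dsc1, -0.29 for Dsg2, -0.58 for Dsc2 and -1.04 for Dsc3, with the errors and adjusted p given above. For Dsg1a, Dsg1b and Dsc2 the RFP differences in the 2 gates had opposite signs and each passed the test, although the call for Dsc2 in MHCIIhi was lost without any 1 of 3 libraries.

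In 5 of 76 groups of 4 libraries, over 19 genes, a library stood far from the other 3 of its population, and chance alone gives about 1 in 20. Dsg1a was at 97.8 CPM in RFP+ MHCIIhi library 3, against 83.2 to 85.0 CPM in the other 3. Dsc3 was at 238 CPM in RFP- MHCIIlo library 4, against 177 to 187 CPM. Pkp3 was at 58.8 CPM in the same library, against 51.2 to 52.2 CPM. Pkp4 was at 130.4 CPM in RFP+ MHCIIlo library 1, against 122 to 123 CPM. Perp was at 330.1 CPM in RFP+ MHCIIhi library 1, against 276 to 279 CPM.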

How the results depend on the processing

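The number of cadherins called stayed within 1.5 times its value in every comparison and alternative, and 40 of the 43 called cadherin differences of 63 kept their call and direction in every alternative. The exceptions, given above, were Dsg1c between RFP+ and RFP- cells of MHCIIlo, Dsc2 between those of MHCIIhi, and the difference between gates of Dsg2. Differences not called were less stable, and 7 of these 20 stayed uncalled with the same sign in every alternative. Dsg2 passed in 12 of 24 alternatives in RFP+ MHCIIlo against RFP+ MHCIIhi, and in 12 of 24 against RFP- MHCIIhi. Dsg1b passed in 5 of 23 in RFP+ MHCIIlo against RFP- MHCIIhi. Dsg1a passed in 4 of 23 in RFP+ MHCIIlo against RFP+ MHCIIhi and in 5 of 23 in RFP+ MHCIIhi against RFP- MHCIIlo. The labels do not say whether replicate numbers pair the libraries. Same-numbered libraries had correlations of -0.019 to 0.129 (median 0.057, 24 pairs), against -0.121 to 0.079 (median -0.017, 72 pairs) for others, and 14 of 16 correlated best with their own number, a hint of pairing from the data and not from the design. With the replicate block the Dsg1c difference in MHCIIlo was 0.98 (adjusted p = 0.06), and Dsg2 passed in RFP+ MHCIIlo against RFP+ MHCIIhi (-0.17, adjusted p = 0.042) and against RFP- MHCIIhi (-0.17, adjusted p = 0.036, edgeR).

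All sign changes in these alternatives were in differences that did not pass the test with all libraries, and their cause was not tested. In RFP+ MHCIIhi against RFP- MHCIIhi, Dsg2 was at -0.02 with RLE size factors and in DESeq2, 0 in limma-voom, and -0.05 to 0.05 without single libraries. Without RFP+ MHCIIlo libraries 1 and 4, Pkp3 in MHCIIlo was 0.03, Dsg1c in RFP+ MHCIIlo against RFP- MHCIIhi -0.04, and the Dsg4 difference between gates -0.26, which was -0.04 in limma-voom. Krt15 in RFP- MHCIIlo against RFP- MHCIIhi was -0.02 with RLE, -0.01 in DESeq2 and with the block, and -0.16 in limma-voom. Leaving out each library in turn gave, in RFP+ MHCIIlo against RFP- MHCIIlo, -0.11 to 0.04 for Pkp3 and -0.07 to 0.6 for Krt15. In RFP- MHCIIlo against RFP- MHCIIhi it gave -0.09 to 0.22 for Dsc1, -0.01 to 0.22 for Pkp2, -0.05 to 0.03 for Trappc8, -0.22 to 0.03 for Nectin4 and -0.47 to 0.18 for Krt15, the first without RFP- MHCIIlo library 1 (adjusted p = 0.0054, edgeR). It gave -0.08 to 0.33 for Dsg1c in RFP+ MHCIIlo against RFP- MHCIIhi and -0.04 to 0.12 for Dsg4 in RFP+ MHCIIhi against RFP- MHCIIlo. Between gates it gave -0.06 to 0.12 for Dsg3 and -0.36 to 0.58 for Dsg4. Depth limits Dsg1c most.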
